A study of Rattus norvegicus with 17 samples.

Results

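The data described here are RNA sequencing counts from lungs of rats given bleomycin and BI1015550, set against lungs of control rats, to ask which genes still differed from control under treatment. The members are the 6 libraries whose rats received 2.5 mg per kg of BI1015550 besides 1 mg per kg of bleomycin, called treated here, and the 6 libraries labelled as NaCl controls. They were taken by their labels and make up 12 of the 17 libraries of the series. The other 5 libraries came from lungs given 1 mg per kg of bleomycin alone, and they serve as a reference. All 17 libraries came from lung parenchyma of rats labelled RjHan:WI, a Wistar stock. Age, sex, time after bleomycin, route and dosing schedule are not given in the labels. No group received the compound without bleomycin, so an effect of BI1015550 itself and a remainder of the bleomycin injury cannot be told apart in this comparison. Whether every library stands for its own animal is not stated in the labels, and the p-values then speak only of spread among these libraries, which may be technical.

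Bleomycin is a cytotoxic antibiotic that breaks DNA. In rodent lungs it injures the alveolar epithelium and the capillary endothelium, draws in leukocytes and then leads to scar formation, in which fibroblasts and myofibroblasts deposit collagen. Cyclic AMP restrains inflammatory cells and fibroblasts, and phosphodiesterases of the PDE4 family degrade it. BI1015550, also known as nerandomilast, inhibits PDE4B, a member of that family, and so slows this degradation. The series title describes the model as therapeutic, which usually means that dosing began after the injury.

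The count table names genes by Ensembl rat gene ID alone, and 0 of its 32753 IDs were found in the reference gene table. The lists of collagens, matrix proteins, inflammatory genes, phosphodiesterases and cell type markers could therefore not be applied, and the tissue label was not checked against lung markers. Genes are described by their levels, sizes of change and behaviour across libraries, and 4 of them are named by ID.

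Treated libraries held fewer reads than control libraries. Their totals ran from 14609389 to 15889091 counts, against 15919392 to 18462105 in controls, and the 2 ranges did not overlap. The mean difference was -1827033 counts (exact permutation test, two-sided, p = 0.00216, the smallest this design allows, adjusted p = 0.00648 over 3 properties). The number of genes with a count differed by less than the spread between libraries, at 18656 ± 180 in treated (SD, n = 6) and 18625 ± 167 in control libraries (SD, n = 6; exact permutation test, p = 0.749). The 10 most abundant genes held 6.76% ± 0.280 of treated counts (SD, n = 6) and 6.91% ± 0.707 of control counts (SD, n = 6; exact permutation test, p = 0.643). The coefficient of variation between libraries of a group, from the edgeR common dispersion, was 17.5% in treated and 18.8% in control lungs, and 23.8% with bleomycin alone.

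Treated lungs still differed from control in 1256 of 15000 genes tested, or 8.37% (edgeR quasi-likelihood test, Benjamini-Hochberg adjusted p below 0.05, called changed here). Of these genes, 587 were higher (3.91% of those tested) and 669 were lower (4.46%). In whole tissue, fewer cells of a type and less RNA per cell cannot be told apart, so a lower gene may reflect either. For comparison, bleomycin alone against control gave calls in 38.2% of the tested genes and treated against bleomycin in 27.7%. With counts of every library thinned to the smallest total, 14609389, 1216 genes were called and 1168 of them were among the 1256, in the same direction. The number of calls fell whenever a control or treated library was left out, which also makes a group smaller. It was lowest without control library 2 (791), treated library 15 (817) and control library 3 (820), and 1215 without control library 5. It rose to 2537 with limma voom, which called 1237 of the 1256 in the same direction.

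**Figure D1:**
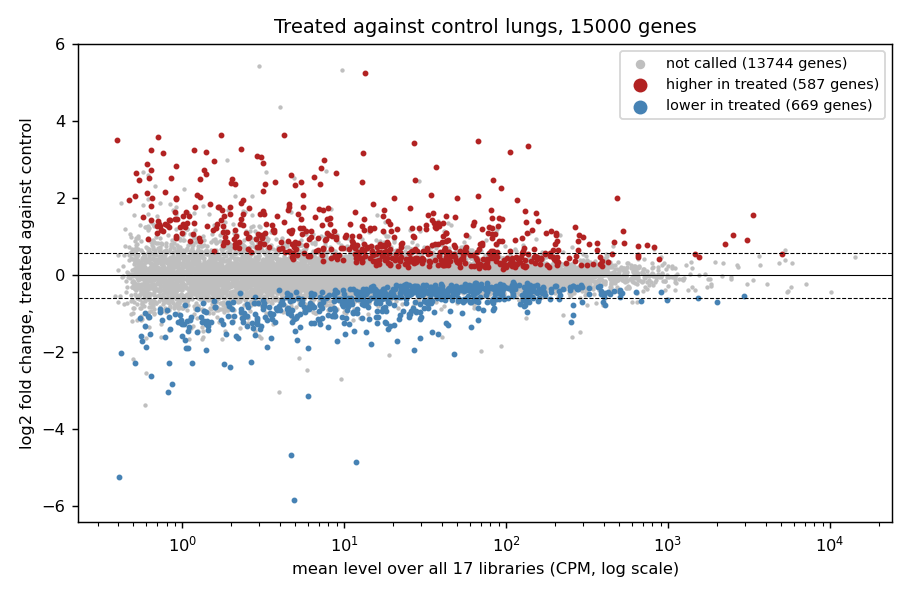
Each point is a gene, with its mean level over all 17 libraries in CPM on a log axis and its log2 fold change of treated against control lungs; dashed lines mark 1.5-fold. The 587 higher and 669 lower genes are spread over low and high levels, and 60 higher and 16 lower genes lie past 4-fold.

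Most of the remaining differences were modest, and the large ones were more often increases. The median log2 fold change was 0.80 among the higher genes (quartiles 0.47 and 1.31, median SE 0.18) and -0.59 among the lower genes (quartiles -0.93 and -0.40, median SE 0.13). Changes under 1.5-fold made up 205 of the 587 higher and 332 of the 669 lower genes. A difference of at least 2-fold was estimated for 232 higher and 145 lower genes, and of at least 4-fold for 60 higher and 16 lower genes. These large changes sat in genes of low abundance. A gene near silence in controls could pass the filter on low counts through the groups where it was high. The numbers of large increases and decreases may therefore depend on that filter, and the difference between them was not tested. With a mean of at least 1 CPM required instead, calls of any size numbered 536 higher and 655 lower. With no filter on low counts they numbered 487 and 529. The 60 genes at least 4-fold higher had a median level of 0.466 CPM (counts scaled to a common library size) in controls and 4.22 CPM in treated lungs. The 205 higher genes under 1.5-fold had medians of 44.6 and 57.2 CPM.

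A stricter test asked which genes differed by more than 1.5-fold beyond their error. It called 81 genes (edgeR glmTreat, adjusted p below 0.05, 0.54% of those tested), of which 61 were higher and 20 lower. Median log2 fold changes were 2.02 for the 61 and -1.98 for the 20. The ranges of treated and control libraries did not overlap for 55 of the 61 and 19 of the 20, against 5.59% of all tested genes. The 81 genes were chosen on these same libraries, which by itself favours ranges that do not overlap. The same test called 387 genes for a threshold of 1.2-fold (2.58%) and 13 for 2-fold (0.0867%). Leaving out control library 1, 2, 3, 4, 5 or 6 lowered the 81 genes to 59, 50, 43, 48, 70 or 51. Leaving out treated library 13, 14, 15, 17 or 18 lowered them to 52, 51, 41, 54 or 57. Without treated library 16 they rose to 90. With a mean of at least 1 CPM required of each gene they numbered 60, and with no filter on low counts 78.

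A gene that was not called is not thereby back at its control level, so the 95% interval of each log2 fold change was read as well. These intervals hold gene by gene and are not adjusted for the number of genes. For 9352 genes (62.3%) there was no call and the whole interval lay within 1.5-fold of control. For another 4392 genes (29.3%) there was no call, but the interval reached 1.5-fold or more, so a residual change of that size was not excluded at this depth and number of libraries. In all, 63.9% of the tested genes had an interval within 1.5-fold. These genes are not thereby restored, since bleomycin alone against control was called in only 38.2% of the tested genes. Of the 1256 called genes, 230 had an interval within 1.5-fold and 1026 did not.

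How many genes could be placed in this way followed their level, while the share called did not. Among the 887 genes below 1 CPM, 7.89% were called, 2.03% were uncalled with an interval within 1.5-fold, and 90.1% stayed unresolved. Among the 2309 genes at 100 CPM or more, 8.96% were called, 78.3% were within 1.5-fold and 12.7% were unresolved. The median half-width of the interval was 0.74 on the log2 scale below 1 CPM and 0.21 at 100 CPM or more. Calls below 1 CPM had a median absolute log2 fold change of 1.47, against 0.47 at 100 CPM or more.

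**Figure D2:**
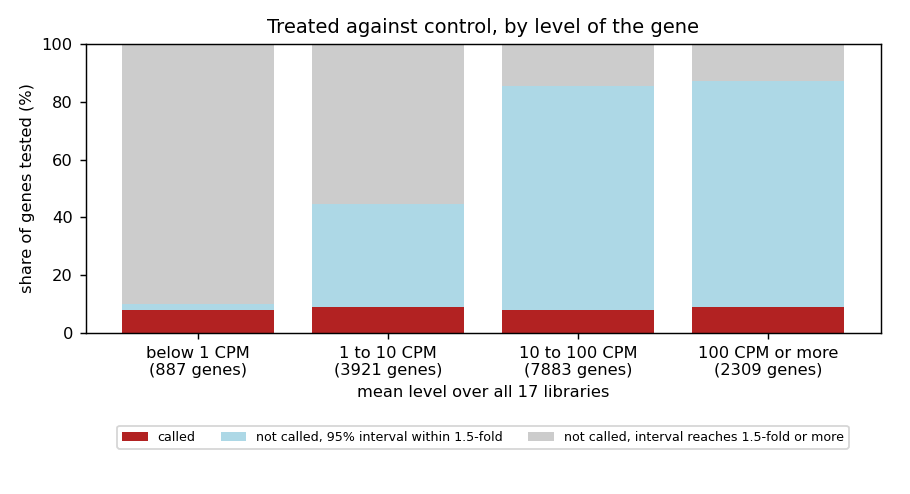
Bars give the share of tested genes, in percent, that were called, not called with a 95% interval within 1.5-fold of control, or not called with a wider interval, for 4 classes of mean level. The called share stays between 7.89% and 9.03% in every class, while the unresolved share is 90.1% in the lowest class and 12.7% in the highest.

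The level of the called genes in lungs given bleomycin alone is set beside their treated level here. The genes were chosen for their difference between treated and control, which draws that difference away from 0, and the control libraries are shared by the treated and the bleomycin comparison. The 587 higher genes had a median level of 12.6 CPM in controls. The median was 25.0 CPM in bleomycin lungs and 22.0 CPM in treated lungs. Their median log2 fold change was 0.80 for treated and 0.89 for bleomycin against control. The 669 lower genes had medians of 26.8, 16.8 and 17.4 CPM in the same order, with median log2 fold changes of -0.59 and -0.60. For the called genes of each direction, the median treated and bleomycin levels were thus closer to each other than to control. This need not hold for a single gene, since no change with bleomycin alone was required of these genes. Over all tested genes the median log2 fold changes were 0.0041 and -0.0072.

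The order of these medians differed between classes of size. Higher genes of 1.5 to 2-fold had a median log2 fold change of 0.75 in treated and 1.05 in bleomycin lungs, both against control, and those of 2 to 4-fold had 1.31 and 1.45. Those under 1.5-fold had 0.41 and 0.48, and the 60 genes at least 4-fold higher had 2.58 in treated and 2.30 in bleomycin lungs. Lower genes under 1.5-fold had -0.40 in treated and -0.36 in bleomycin lungs, and those of 1.5 to 2-fold had -0.74 and -0.75. Lower genes of 2 to 4-fold had -1.22 and -1.51, and the 16 genes at least 4-fold lower had -2.49 and -2.04. Choosing genes by a large treated difference favours a larger median in treated lungs, and these differences in order were not tested.

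Most calls were carried by most treated libraries. All 6 treated libraries lay above the control range for 281 of the 587 higher genes, and 5 did so for another 206. For the 669 lower genes all 6 lay below it in 386 cases and 5 in another 148. Over all tested genes the ranges did not overlap, in the higher or the lower direction, for 2.35% and 3.24%. The called genes were chosen on the separation of these same libraries, so their larger share follows in large part from the choice. The treated libraries were not alike, however. Treated library 16 was the treated library nearest to control for 193 higher genes (32.9%, where an even share is 16.7%) and 148 lower genes (22.1%). Treated library 15 was nearest for 33 higher (5.62%) and 65 lower genes (9.72%), and farthest for 161 (27.4%) and 139 (20.8%).

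Libraries that took no part in choosing the genes showed the same displacement. Each treated library was measured on the genes called without it, as its median log2 CPM difference from the mean of the controls. For genes called higher, numbering 392 to 566, this difference was 0.45 in treated library 16, 0.60 in 18, 0.63 in 13, 0.70 in 17, 0.75 in 14 and 0.93 in 15. For genes called lower, 425 to 599 in number, it ran from -0.62 in library 15 to -0.45 in library 18. Every left-out treated library thus lay above control for the higher genes and below it for the lower genes.

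Left-out control libraries were measured as well, for reference. Set against the other 5 controls, their medians ran from -0.022 to 0.22 for higher genes and from -0.17 to -0.0098 for lower genes. Control library 5 lay farthest towards the treated values in both directions, at 0.22 and -0.17. No left-out control reached the value of any left-out treated library. The control libraries that form the reference also helped to choose the genes, which can widen the treated differences.

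**Figure D3:**
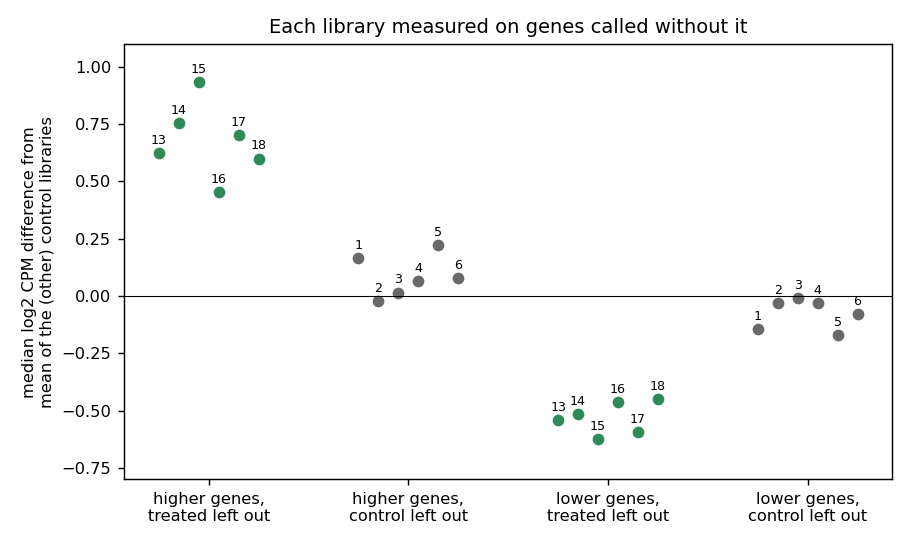
Points are single libraries, marked with their number, at the median log2 CPM difference from the control mean over genes called without that library; a left-out control is compared with the other 5 controls. Treated libraries lie from 0.45 to 0.93 for higher genes and from -0.62 to -0.45 for lower genes, and control libraries from -0.022 to 0.22 and from -0.17 to -0.0098.

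A part of the list held whichever library was removed. Of the 1256 genes, 649 (51.7%) were called in each of the 17 fits that left out 1 library, 313 of them higher and 336 lower. Their median absolute log2 fold change was 0.81, against 0.52 for the 607 genes lost in at least 1 of these fits. Under every alternative run, other tools, scalings and filters included, 500 genes (39.8%) were called, 246 higher and 254 lower.

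**Figure D4:**
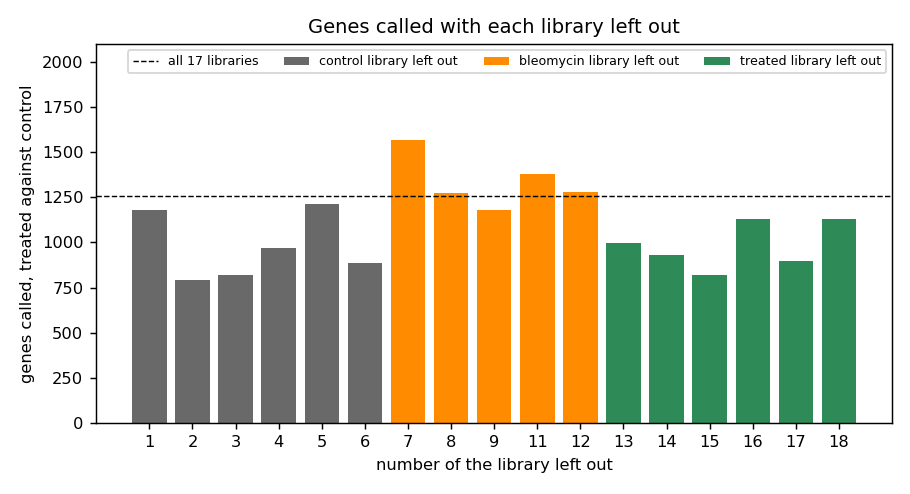
Bars give the number of genes called for treated against control when the library on the x axis was left out, and the dashed line marks the 1256 calls with all 17 libraries. The lowest bars are control library 2 (791), treated library 15 (817) and control library 3 (820), and the highest is bleomycin library 7 (1570).

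The 4 genes named here had the largest changes in each direction among 526 called genes with a mean of at least 5 CPM and ranges that did not overlap. That mean was reached by 11725 tested genes. Over all tested genes 8.37% were called, and the ranges did not overlap for 5.59%. The group means of the 4 named genes stood in 4 different orders. Not every step in these orders passed its edgeR test, and whether the courses of these genes differ was not tested. ENSRNOG00000011824 was almost silent in controls, from 0.0523 to 0.536 CPM with a median of 0.216, which rests on 1 to 9 counts per library. The 6 treated libraries ran from 4.63 to 13.4 CPM with a median of 10.02. Every treated library lay above every control, as the choice of named genes required. With so few counts in controls, the gene passed the filter on low counts through the groups where it was high. Its p-value and interval do not allow for this choice. The log2 fold change was 5.25 (SE 0.36, 95% interval 4.49 to 6.01, edgeR adjusted p = 3.91e-07), or 38.1-fold.

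With bleomycin alone ENSRNOG00000011824 stood at 40.9, 42.1, 33.7, 20.9 and 30.2 CPM in libraries 7, 8, 9, 11 and 12. All 5 lay above all treated libraries. The treated level thus lay between control and bleomycin, with a log2 difference from bleomycin of -1.80 (SE 0.25, edgeR adjusted p = 0.000445).

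ENSRNOG00000011557, unlike ENSRNOG00000011824, had its highest group mean in treated lungs. Controls ran from 6.04 to 19.5 CPM with a median of 14.6. Treated libraries ran from 25.0 to 284.8 CPM with a median of 131.7. Treated library 16, the lowest at 25.0 CPM, lay near the top control, while the other 5 were at 113 CPM or more. The log2 fold change was 3.50 (SE 0.53, 95% interval 2.38 to 4.62, edgeR adjusted p = 0.000952), or 11.3-fold.

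The bleomycin libraries stood at 33.6, 5.24, 14.6, 16.6 and 44.3 CPM for ENSRNOG00000011557, a spread that took in the control range. Against control their log2 fold change, 0.72 (SE 0.53, edgeR adjusted p = 0.293), did not pass. Treated lungs lay above bleomycin lungs, with a log2 difference of 2.78 (SE 0.55, edgeR adjusted p = 0.00262), although treated library 16 fell within the bleomycin range.

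ENSRNOG00000012052 had the largest decrease, and its controls fell into separate levels. Control libraries 1, 2 and 3 stood at 1.16, 1.202 and 1.28 CPM, and control libraries 4, 5 and 6 at 26.1, 25.0 and 29.2 CPM. Bleomycin libraries 8, 9 and 11 stood at 36.9, 35.1 and 39.5 CPM, and bleomycin libraries 7 and 12 at 0.458 and 1.16 CPM. All 6 treated libraries were low, from 0.131 to 0.629 CPM on 2 to 10 counts each. The treated range thus lay just below the lower of the control levels and far below the upper.

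The fitted log2 fold change of ENSRNOG00000012052 against control was -4.86 (SE 1.21, 95% interval -7.42 to -2.31, edgeR adjusted p = 0.0202). It was called in 23 of 26 alternatives, with adjusted p from 5.71e-05 to 0.258. It was not called with limma voom (log2 fold change -3.89, adjusted p = 0.258), with no filter on low counts (edgeR adjusted p = 0.0524) or without treated libraries 13 and 17 (edgeR adjusted p = 0.079). Because both reference groups hold libraries at either level, its mean describes no single library.

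ENSRNOG00000019584 was low in both treated and bleomycin lungs. Controls ran from 5.60 to 36.6 CPM with a median of 12.1. Treated libraries ran from 0.140 to 3.92 CPM with a median of 1.64. Treated libraries 14 and 15, at 0.140 and 0.261 CPM, were the lowest. No treated library reached the control range, as the choice of named genes required. The log2 fold change was -3.13 (SE 0.54, 95% interval -4.25 to -2.0, edgeR adjusted p = 0.00214), or 8.73-fold lower.

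The 5 bleomycin libraries held 0.262, 0.777, 0.400, 0.568 and 0.453 CPM of ENSRNOG00000019584. These values lay inside the treated range. The log2 difference of treated from bleomycin, 1.77 (SE 0.70, edgeR adjusted p = 0.0681), did not pass, and the adjusted p ran from 0.0294 to 0.515 over 25 alternatives, of which 4 passed.

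**Figure D5:**
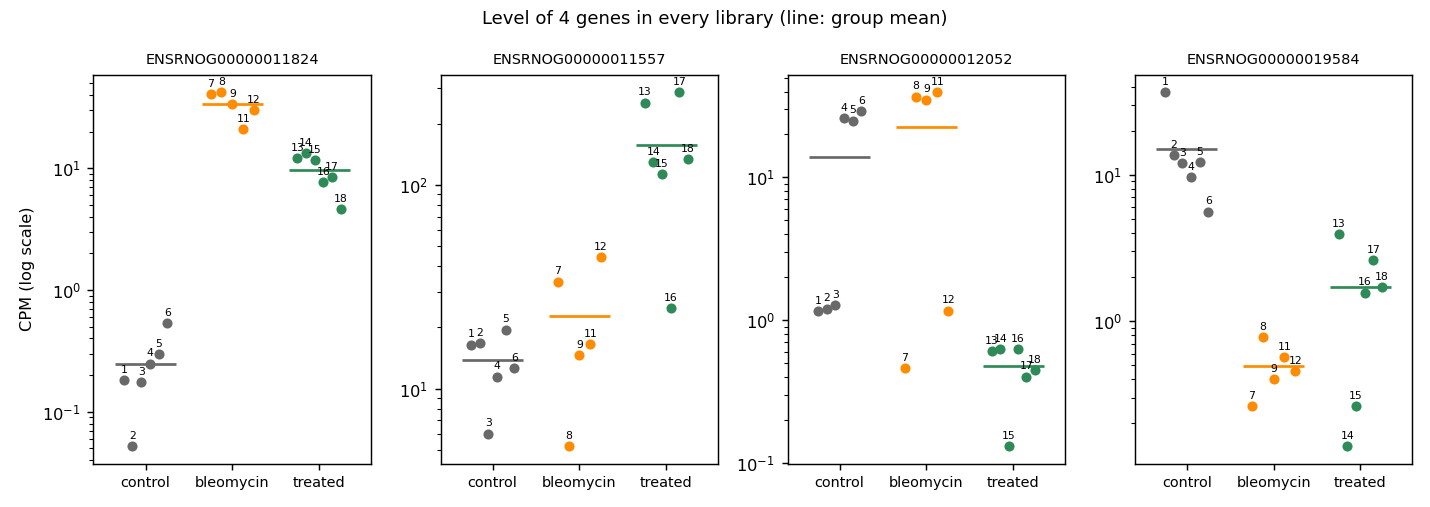
Each panel shows 1 gene in CPM on a log axis, with a point per library marked by its number and a line at the group mean. Treated libraries lie between control and bleomycin for ENSRNOG00000011824. For ENSRNOG00000011557 they lie above both groups, except that library 16 falls within the bleomycin range. For ENSRNOG00000012052 they lie below both levels of a split control group. For ENSRNOG00000019584 treated libraries 14 and 15 lie below all bleomycin libraries and the other treated libraries above them.

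At the edge of detection, 4 genes had no count in any control library and at least 1 count in every treated library, with 1 to 17 counts in a library. Another 5 genes had no count in any treated library and 1 to 49 counts in each control. None of these 9 genes passed the expression filter, and none was tested.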

How the data were processed

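A single table of raw counts, deposited by the authors, gives reads per gene in whole numbers for 17 TruSeq mRNA libraries. The submitters' processing notes list featureCounts 1.5.1, RSEM 1.3.0 and STAR (2.5.2, 2.5.2b) among the tools, and Rnor_6.0 among the builds. The sources used here do not say which of them made the counts, nor the annotation, strand setting or filters, so reads of overlapping, antisense or duplicated genes may be shared or lost.

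The analysis ran in edgeR 4.0.16 under R 4.3.3. Genes passing filterByExpr (15000 of 23083 with a count, holding 99.927% of counts) were scaled by TMM and fitted with a robust quasi-likelihood model of 3 groups over all 17 libraries. The SE is the log2 fold change divided by the square root of F. Log2 CPM used a prior count of 2. The fit was tested on simulated data. Libraries of a group differed by more than sampling noise, with a chi-square per degree of freedom of at least 11.5 for any pair. Alternatives used DESeq2 1.42.0, limma 3.58.1, other scalings and filters, thinned counts and left-out libraries.

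The members, gene lists and alternatives were chosen with earlier results of these data known. Genes were named by a rule: a call at an adjusted p under 0.05, 5 CPM or more on average, group ranges without overlap, and the 2 largest changes in each direction. Its parts that need gene symbols could not be used. The measures on left-out libraries, on genes split within a group and on the nearest library were chosen after the data were seen.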

Additional observations from a re-analysis of the deposited data

Results flagged for a closer look

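Dixon's criterion was applied to 25 sets of library values, and a single library stood apart in 1 of them. About 1 in 20 normally distributed sets would be marked by chance. Control library 1 held 36.6 CPM of ENSRNOG00000019584. The remaining 5 controls ran from 5.60 to 13.5 CPM, so that the gap took 0.744 of the whole range, above the limit of the criterion. Without that library its log2 fold change of treated against control was -2.63 in place of -3.13, with an edgeR adjusted p of 0.00435 (3.36e-05 to 0.00615 over all alternatives).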

How the results depend on the processing

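Leaving out 1 library at a time gave 791 to 1570 called genes, 370 to 721 higher, 421 to 849 lower, 41 to 101 beyond 1.5-fold and 9132 to 9783 with an interval within 1.5-fold. With limma voom 2537 genes were called, 1178 higher and 1359 lower. Without treated libraries 13 and 17, 847 genes were called (657 of them among the 1256, in the same direction), 383 were lower and 49 differed beyond 1.5-fold. With all libraries, 81 genes differed beyond 1.5-fold, 387 beyond 1.2-fold and 13 beyond 2-fold, and an interval within 1.2-fold was met by 2673 genes. The remaining alternatives kept the number of calls between 1016 (no filter on low counts) and 1846 (DESeq2). Differences in library properties ran from -17.5 to 86.8 genes with a count and from -0.308 to 0.0561 percentage points for the 10 most abundant genes over left-out libraries, crossing 0 without control library 1 (-17.5 genes and 0.0561 points), control library 4 (-3.67 genes) and treated library 15 (-14.6 genes). Total counts differed by -2016585 to -1508042. No fold change of a named gene changed sign in any alternative run. The causes of these shifts were not tested. Alternatives of gene lists could not be run without gene symbols. No paired analysis was possible because library numbers differ between all groups.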

Other observations

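Genes whose libraries split into separate levels within a group, as ENSRNOG00000012052 did, were rare. Among 11725 tested genes with a mean of at least 5 CPM, 6 had a gap of at least 4-fold on the log2 CPM scale within the controls with 2 or more libraries on each side, 13 had such a gap within treated libraries, and 1 had it in both. Of the 6 genes split in controls 1 was called for treated against control, ENSRNOG00000012052 itself, and of the 13 split in treated lungs 1 was called. Over all tested genes 8.37% were called, and these sets are too small to be told apart from that share. Only 1 gene, ENSRNOG00000012052, separated control libraries 1, 2 and 3 from the others. The other control splits followed 3 further divisions of the libraries.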
